A study of Mus musculus with 4 samples.

Results

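The genes described here are 37 genes of interferon signalling and antigen presentation, chosen by symbol from 32531 gene rows, and all 37 had at least 1 count. They were measured by RNA sequencing in nucleus accumbens and dorsal striatum, with 2 libraries per region, and the accumbens was set against the dorsal striatum. Each group came from dissected tissue of the Drd1-EGFP/Rpl10a mouse line CP73 at an age of over 20 months, so line and age are shared by all 4 libraries and neither can be compared. In this line the promoter of the dopamine receptor gene Drd1 drives a tagged ribosomal protein, and all libraries were of the input kind, that is, total RNA of the whole dissected tissue. The labels do not say whether 1 animal or a pool went into a library, or whether replicates are different animals. The spread behind each p-value is that between 2 libraries per region and may be technical.

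Interferons are secreted proteins of antiviral defence. The type I receptor (Ifnar1 and Ifnar2) and the type II receptor (Ifngr1 and Ifngr2) signal through Janus kinases to STAT proteins and interferon regulatory factors, which bind the interferon-stimulated response element, or the gamma-activated site, in the promoters of target genes. Targets include antiviral effectors and the genes that load peptides onto major histocompatibility complex (MHC) molecules and carry them to the cell surface. In the healthy brain these targets are low and are found mainly in microglia and vessel cells, and low-level interferon signalling is known to increase with age.

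The promoters of some members hold the response element, and examples are shown because it is the sequence through which interferon is known to act on its target genes. A promoter (250 bases before to 50 bases after the transcript start, RefSeq, GRCm38.p6) was found for 29 members. Of these, 11 held the element's core, GAAA and again GAAA with any 2 bases between them, on either strand (37.9%), against 3.99% of all 27025 genes with a promoter. The core was in the windows of Isg15, Ifit1, Ifit3, Bst2, Trim30a, Ddx58, Ifih1, Eif2ak2, Stat2, B2m and H2-T23. The gamma-activated site, TTCNNNGAA, was in 7 members (24.1%), against 9.55% of all genes, and Bst2 and Eif2ak2 held both motifs. Of the effectors with a promoter, Ifit2 and Oasl2 did not hold the core in this window. A match is a description of letters in a window, not of binding. The 250 bases before the start of Isg15 and of B2m follow, in the direction of the gene, with the core in capitals. In Isg15 the capitals hold 3 overlapping cores, the first starting 78 bases before the transcript start.
Isg15, chr4:156200819-156201068, minus strand: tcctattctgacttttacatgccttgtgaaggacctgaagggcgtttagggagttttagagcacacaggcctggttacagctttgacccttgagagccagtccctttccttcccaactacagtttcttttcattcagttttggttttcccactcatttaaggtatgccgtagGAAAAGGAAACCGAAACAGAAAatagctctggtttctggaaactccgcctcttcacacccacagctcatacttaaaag
B2m, chr2:122147437-122147686, plus strand: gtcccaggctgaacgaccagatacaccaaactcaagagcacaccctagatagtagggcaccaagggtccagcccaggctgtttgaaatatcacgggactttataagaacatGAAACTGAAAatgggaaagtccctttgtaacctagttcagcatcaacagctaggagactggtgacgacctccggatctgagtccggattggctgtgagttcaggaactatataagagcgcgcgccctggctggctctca

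In the neighbours Ifit1 and Ifit3 and in Stat2 the core lay on the other strand, so it reads as its reverse complement in the gene's direction. The stretches below give it in capitals with 10 bases on each side, and the 2 stretches of Ifit1 and of Ifit3 show that each of these promoters held the core at 2 places.
Ifit1, chr19:34640775-34640804, plus strand: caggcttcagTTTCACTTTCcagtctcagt
Ifit1, chr19:34640794-34640823, plus strand: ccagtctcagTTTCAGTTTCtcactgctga
Ifit3, chr19:34583363-34583392, plus strand: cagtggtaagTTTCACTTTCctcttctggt
Ifit3, chr19:34583397-34583426, plus strand: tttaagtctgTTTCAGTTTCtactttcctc
Stat2, chr10:128270266-128270295, plus strand: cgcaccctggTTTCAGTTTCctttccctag

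None of the 37 genes passed the threshold between accumbens and dorsal striatum. The kinase gene Jak1 and the RNA editing gene Adar were abundant in both regions, above 100 CPM in every library (CPM, counts scaled to library size with TMM factors), while most interferon-induced effectors were below 10 CPM. The lowest adjusted p belonged to Oasl2, an antiviral gene with lower values in accumbens. After the low-count filter, 28 members were tested and 9 were not (Isg15, Usp18, Mx1, Mx2, Bst2, Rtp4, Tap1, Tap2 and H2-Aa). Of the tested members 0 passed an adjusted p of 0.05 in edgeR's quasi-likelihood test with Benjamini-Hochberg adjustment, against 1.28% of all 14493 tested genes (0.994% higher and 0.290% lower in accumbens). That split over all genes turned with the scaling, with 144 higher and 42 lower under TMM and 72 higher and 172 lower under library size alone. At an unadjusted p under 0.05 there was 1 member, Oasl2, against 19.2% of all tested genes. DESeq2 gave an adjusted p for 17 of the 28 and called 0 (6.10% of all genes). Its unadjusted p was under 0.05 for 2 members, against 2443 of all 14493 tested genes. With limma-voom 0 of 28 were called (2.97% of all genes), and 4 members had an unadjusted p under 0.05, against 2875 of all 14493. The log2 fold change (accumbens over dorsal striatum) was above 0 for 15 and below 0 for 13, where 51.4% of all tested genes were above 0, and its median was 0.07 over the tested members and 0.02 over all tested genes. The libraries of the regions did not overlap for 6 tested members higher and 5 lower in accumbens, and for 51.2% of all tested genes (25.6% higher and 25.6% lower).

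The levels rest on 8606099 and 8478403 counts assigned to genes in accumbens and 8991788 and 11849134 in dorsal striatum. The accumbens libraries detected fewer genes (16915 and 17417, against 19519 and 19532 in dorsal striatum), and 178 and 96 tested genes were at 0 in accumbens replicates 1 and 2, against 4 and 8 in the dorsal striatum libraries. All 10 markers of spiny projection neurons, the main striatal cell, were tested, with 4 log2 fold changes above 0 and 6 below, and Rgs9 alone passed, lower in accumbens (−1.13, edgeR adjusted p = 0.0233). Of 9 cortical neuron markers 8 were tested, with 5 above 0 and 3 below, and Nrgn alone passed, lower in accumbens (−1.18, edgeR adjusted p = 0.047). Most of these markers pointed the other way, with a median log2 fold change of 1.37. The libraries did not overlap for 5 of these markers higher and 1 lower in accumbens, against 25.6% of all tested genes in each direction. Their sums were 386 and 258 CPM in accumbens and 253 and 274 CPM in dorsal striatum. In whole tissue, fewer cells of a type and less RNA per cell cannot be told apart.

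**Figure D1:**
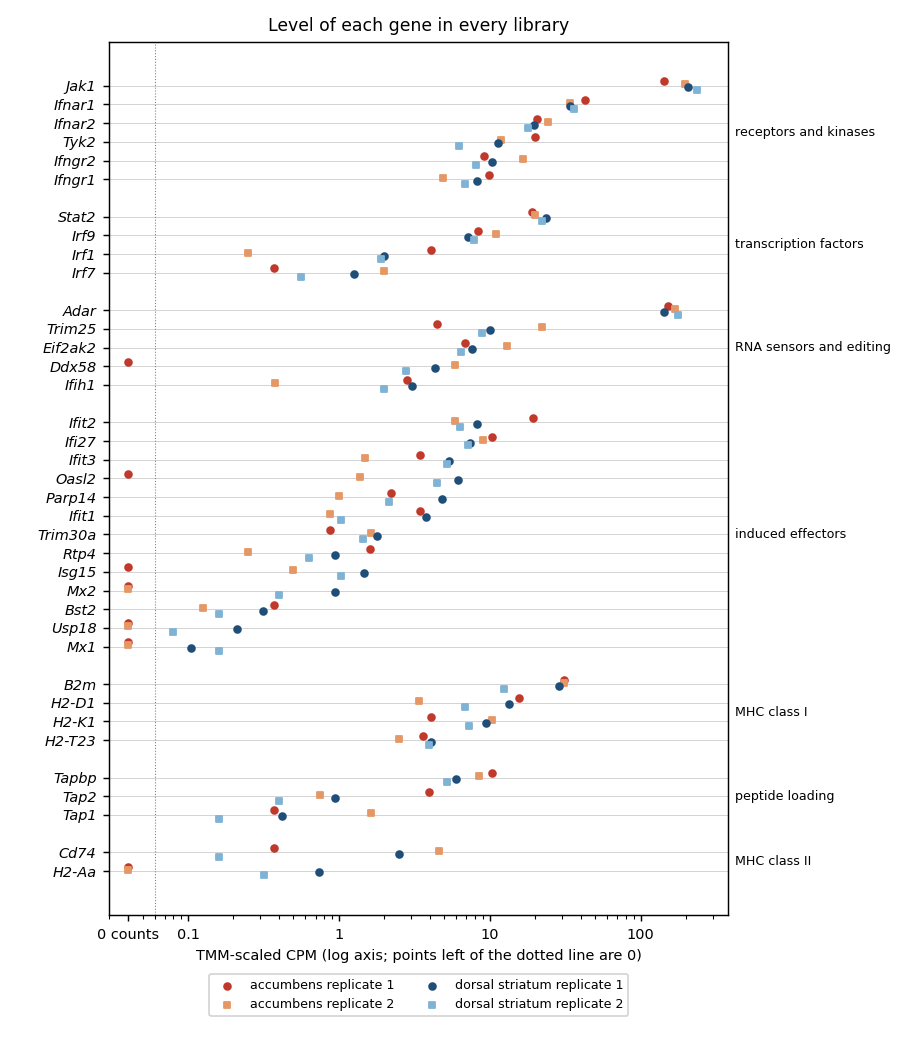
TMM-scaled CPM of each of the 37 genes (rows, by role) on a log axis, 1 point per library (accumbens in red and orange, dorsal striatum in dark and light blue), with libraries without a count left of the dotted line. Jak1 and Adar lie above 100 CPM in all 4 libraries, and Mx1, Mx2, Usp18 and H2-Aa have 0 counts in both accumbens libraries.

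Receptors and kinases were detected in every library, and none of the 6 passed. Jak1, the kinase shared by both receptor types, had 142 and 197 CPM in accumbens replicates 1 and 2, against 207 and 235 CPM in dorsal striatum replicates 1 and 2. Every accumbens value lay below every dorsal striatum value, and the log2 fold change was −0.38 (SE 0.18, 95% interval −0.79 to 0.02, edgeR adjusted p = 0.283). Without accumbens replicate 2 Jak1 passed, at −0.64 (edgeR adjusted p = 0.0041). Ifnar1, a chain of the type I receptor, was at 42.6 and 34.3 CPM in accumbens and 34.0 and 35.9 CPM in dorsal striatum, and these groups overlapped.

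Ifnar2, the other type I chain, was at 20.7 and 24.3 CPM in accumbens and 19.8 and 17.9 CPM in dorsal striatum. Tyk2, the kinase bound to Ifnar1, was at 19.9 and 11.9 CPM in accumbens and 11.3 and 6.30 CPM in dorsal striatum, and each region held a high and a low library. Its log2 fold change of 0.86 (SE 0.42) had an interval of −0.10 to 1.82 (edgeR adjusted p = 0.310), and without accumbens replicate 2 it was 1.19 (edgeR adjusted p = 0.00425). Of the type II receptor chains, Ifngr2 was at 9.17 and 16.5 CPM in accumbens and 10.3 and 8.13 CPM in dorsal striatum, and Ifngr1 at 9.91 and 4.88 CPM against 8.20 and 6.85 CPM. The accumbens libraries thus took opposite orders for these partner chains, replicate 2 being higher for Ifngr2 and replicate 1 for Ifngr1. The median log2 fold change of this group was 0.20.

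Per length of transcript, levels can be set beside each other across genes, though only roughly. Exons of Jak1, Adar and Ifnar2 overlap another gene, and reads there may be missing from their values. The means over all libraries, in CPM per kilobase of the longest coding transcript in GENCODE M21, were 39.8 for Jak1, 30.1 for B2m, 27.2 for Adar, 9.39 for Ifnar1, 8.68 for Ifi27 and 6.77 for Ifnar2. Isg15 was at 0.994 and Ifih1 at 0.378 on this scale. By region mean, B2m exceeded Adar in accumbens (36.1 against 27.2 CPM per kilobase) but not in dorsal striatum (24.1 against 27.1). In dorsal striatum replicates 1 and 2 B2m was at 33.7 and 14.5 and Adar at 24.3 and 29.9. B2m thus exceeded Adar in replicate 1 there and was below it in replicate 2.

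The transcription factor genes covered a wide range. Stat2, a transcription factor of the type I response that acts together with Irf9, was at 19.2 and 19.9 CPM in accumbens and 23.7 and 22.3 CPM in dorsal striatum. Libraries of a region lay close together, and the log2 fold change of −0.24 had an interval of −0.80 to 0.32 (edgeR adjusted p = 0.655). Irf9, its DNA-binding partner, had 8.30 and 11.001 CPM in accumbens and 7.14 and 7.89 CPM in dorsal striatum, with a log2 fold change of 0.36 (edgeR adjusted p = 0.664). Irf1 and Irf7, which are themselves interferon-induced, stood at the edge of detection. Irf1 had 33 and 2 counts in accumbens replicates 1 and 2, and 19 and 24 counts in dorsal striatum. Irf7 had 3 and 16 counts in accumbens and 12 and 7 counts in dorsal striatum. Both accumbens values of each gene enclosed the dorsal striatum values. Of this group 0 of 4 passed, with a median log2 fold change of 0.25.

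Among RNA sensors and the enzymes beside them, Adar was abundant and did not separate the regions. Adar, whose product edits adenosine to inosine in double-stranded RNA and so keeps self RNA from being sensed, was at 153 and 169 CPM in accumbens and 144 and 177 CPM in dorsal striatum. Its log2 fold change was 0.00 (SE 0.15), and the interval of −0.35 to 0.35 was the narrowest of the tested members. The sensors themselves were low and uneven. Ddx58, which encodes the sensor RIG-I, had 0 and 47 counts in accumbens replicates 1 and 2, and 41 and 35 counts in dorsal striatum. Ifih1, which encodes the sensor MDA5, had 23 and 3 counts in accumbens and 29 and 25 counts in dorsal striatum. For these 2 sensors the low accumbens library was not the same one.

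Trim25, a ubiquitin ligase that activates RIG-I, was at 4.46 and 22.4 CPM in accumbens and 10.1 and 8.93 CPM in dorsal striatum. Eif2ak2, the kinase PKR that halts translation on sensing double-stranded RNA, was at 6.81 and 13.001 CPM in accumbens and 7.67 and 6.45 CPM in dorsal striatum. Ddx58, Trim25 and Eif2ak2 were all higher in accumbens replicate 2 than in replicate 1, with both dorsal striatum libraries between them for Ddx58 and Trim25. Trim25 passed in opposite directions depending on the library left out. Its log2 fold change was 0.50 (SE 0.63) with all libraries, 1.24 without accumbens replicate 1 (edgeR adjusted p = 0.00167) and −1.09 without accumbens replicate 2 (edgeR adjusted p = 0.0242). Of this group 0 of 5 passed and the median was 0.00.

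Of the 13 interferon-induced effectors, 7 were tested and 0 passed (median log2 fold change −0.36). Ifit2, one of the RNA-binding Ifit proteins encoded side by side on chromosome 19, had 19.3 and 5.88 CPM in accumbens replicates 1 and 2, and 8.20 and 6.38 CPM in dorsal striatum. Ifit3 was at 3.47 and 1.50 CPM in accumbens and 5.36 and 5.18 CPM in dorsal striatum, and Ifit1 at 3.47 and 0.875 CPM against 3.78 and 1.04 CPM. All 3 Ifit genes were higher in accumbens replicate 1 than in replicate 2, yet against dorsal striatum they differed, Ifit3 being lower in both accumbens libraries and Ifit2 higher in replicate 1 alone. The log2 fold changes were 0.79 for Ifit2, −1.08 for Ifit3 and −0.14 for Ifit1, with edgeR adjusted p of 0.478, 0.390 and 0.961. Without accumbens replicate 2 Ifit2 passed at 1.41 (edgeR adjusted p = 0.00064), and without accumbens replicate 1 Ifit3 passed at −1.81 (edgeR adjusted p = 0.021).

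Oasl2, a member of the oligoadenylate synthetase family on chromosome 5 (114896936 to 114912234), had 0 and 11 counts in accumbens replicates 1 and 2, and 59 and 56 counts in dorsal striatum. As levels these were 0 and 1.38 CPM in accumbens and 6.20 and 4.46 CPM in dorsal striatum. Both accumbens values lay below both dorsal striatum values, with a log2 fold change of −2.93 (SE 1.12, 95% interval −5.51 to −0.35). Its unadjusted p was 0.0304 and its edgeR adjusted p 0.211. Oasl2 passed without the low-count filter (edgeR adjusted p = 0.013, where 5.68% of all genes passed), without accumbens replicate 1 (log2 fold change −1.94, edgeR adjusted p = 0.0173) and without accumbens replicate 2. In that last fit accumbens was at 0, and against a floor of 3 counts in the remaining library Oasl2 was at least 14.3-fold lower than the dorsal striatum mean. It did not pass under the other alternatives, with adjusted p-values up to 0.967, and DESeq2 gave it no adjusted p.

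Among the remaining effectors, Ifi27, an interferon-inducible membrane protein gene, had 10.4 and 9.00 CPM in accumbens and 7.36 and 7.17 CPM in dorsal striatum, with a log2 fold change of 0.42 (interval −0.43 to 1.26, edgeR adjusted p = 0.590). Parp14, an ADP-ribosyltransferase gene, was at 2.23 and 1.00 CPM in accumbens and 4.83 and 2.15 CPM in dorsal striatum. Trim30a, a mouse TRIM protein gene, was at 0.867 and 1.63 CPM in accumbens and 1.79 and 1.43 CPM in dorsal striatum. For both genes the groups overlapped.

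The other 6 effectors were below the filter. Isg15, the ubiquitin-like modifier, had 0 and 4 counts in accumbens and 14 and 13 counts in dorsal striatum. Mx2, of the dynamin-like GTPase family, has no coding transcript in GENCODE M21. This gene had 0 and 0 counts in accumbens and 9 and 5 counts in dorsal striatum. The dorsal striatum mean was 1.80-fold a floor of 3 counts per accumbens library (0.373 CPM). Dorsal striatum replicate 2, at 0.398 CPM, was close to that floor. Rtp4, Bst2 (tetherin), Usp18 (the protease that removes Isg15) and Mx1 had from 0 to 13 counts in any library, and Mx1 and Usp18 had 0 in both accumbens libraries and 1 or 2 in each dorsal striatum library, too few to tell a difference. Of these 6 genes, 4 had every accumbens value below every dorsal striatum value and 0 had the reverse. Among all genes with counts below the filter, 26.9% were lower in accumbens in this way and 5.59% higher. The summed effector level was 41.7 and 22.1 CPM in accumbens replicates 1 and 2, and 41.5 and 30.3 CPM in dorsal striatum, so the sums overlapped.

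Zeros of this kind were compared with all genes of like counts. Of 2741 genes with 50 to 149 counts summed over the dorsal striatum libraries, 1.46% were at 0 in an accumbens library, and Oasl2 and Ddx58 were 2 of the 7 members in this range. Of 2057 genes with 20 to 49 such counts, 20.0% were at 0 in an accumbens library, and Isg15 was 1 of 5 members. Of 1484 genes with 10 to 19 such counts, 13.7% were at 0 in both accumbens libraries, and Mx2 and H2-Aa were 2 of 5 members. Of 4407 genes with 1 to 9 such counts, 53.3% were at 0 in both, as were Usp18 and Mx1 of 4 members.

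**Figure D2:**
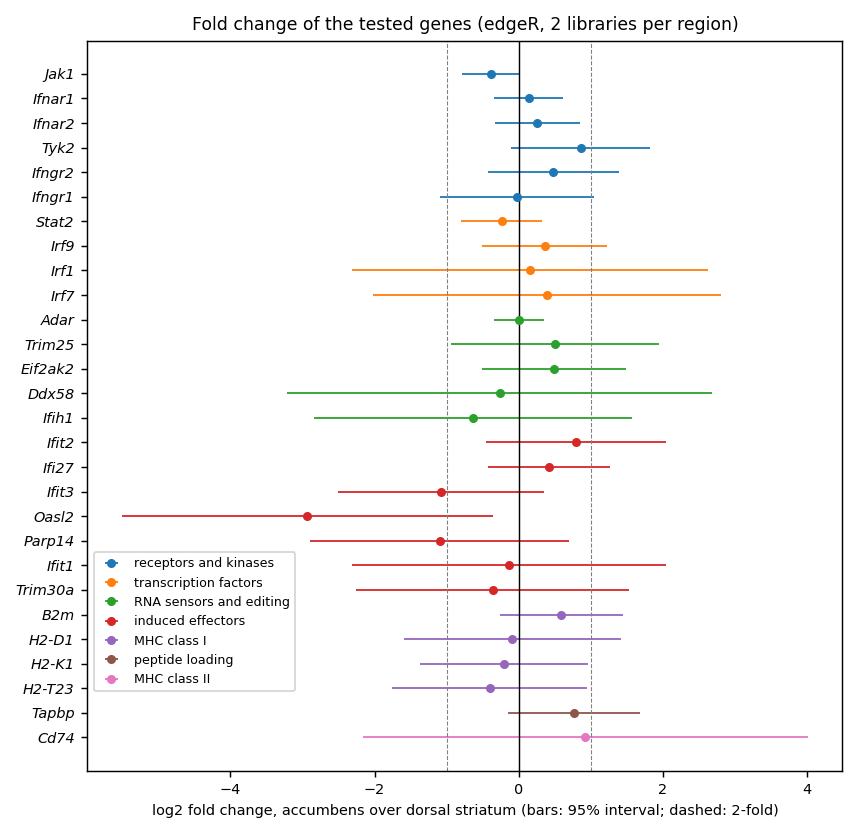
Log2 fold change of accumbens over dorsal striatum for the 28 tested genes, with 95% intervals from edgeR's quasi-likelihood fit, coloured by role. The intervals of Adar, Jak1, Ifnar1, Ifnar2 and Stat2 lie within the dashed 2-fold lines, and that of Oasl2 alone excludes 0 before adjustment.

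The intervals show which differences the data could bound. For 5 of the 28 tested members (Stat2, Adar, Ifnar1, Ifnar2 and Jak1) the 95% interval excluded a 2-fold difference in either direction, against 41.7% of all tested genes. For the other 23, a 2-fold difference was within the interval.

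MHC class I genes had moderate levels in both regions. These molecules show peptides from inside the cell to CD8 T cells and also act at synapses. B2m, the light chain of every class I molecule (chromosome 2, 122147686 to 122153083), was at 31.2 and 30.9 CPM in accumbens, against 29.0 and 12.5 CPM in dorsal striatum replicates 1 and 2. The accumbens values lay close together and above both dorsal striatum values, and the log2 fold change was 0.59 (SE 0.37, interval −0.26 to 1.44, edgeR adjusted p = 0.433). Without dorsal striatum replicate 1 it was 1.29 and without dorsal striatum replicate 2 it was 0.09, and neither passed.

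The 3 heavy chain genes had log2 fold changes below 0, and whether they differ from B2m was not tested. H2-D1, a classical heavy chain, had 15.6 and 3.38 CPM in accumbens replicates 1 and 2, and 13.4 and 6.85 CPM in dorsal striatum. H2-K1, the other classical heavy chain here, was at 4.09 and 10.4 CPM in accumbens and 9.46 and 7.25 CPM in dorsal striatum. H2-D1 was thus higher in accumbens replicate 1 and H2-K1 in replicate 2, and the accumbens values of H2-D1 enclosed those of dorsal striatum. H2-T23, the non-classical chain Qa-1 that is seen by receptors of natural killer cells, was at 3.59 and 2.50 CPM in accumbens and 4.10 and 3.98 CPM in dorsal striatum. The log2 fold changes were −0.09, −0.21 and −0.41 for H2-D1, H2-K1 and H2-T23, with edgeR adjusted p from 0.767 to 0.962. H2-D1 passed at −1.57 without accumbens replicate 1 (edgeR adjusted p = 0.0119) and H2-K1 at −1.02 without accumbens replicate 2 (edgeR adjusted p = 0.0446). Class I heavy chain genes share near-identical stretches, so these 3 counts are uncertain.

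Of the peptide loading genes, Tapbp, which encodes the chaperone tapasin, was at 10.4 and 8.50 CPM in accumbens and 5.99 and 5.18 CPM in dorsal striatum. The groups did not overlap, and the log2 fold change was 0.76 (SE 0.40, interval −0.16 to 1.68, edgeR adjusted p = 0.345), or 0.90 without accumbens replicate 2, where it passed (edgeR adjusted p = 0.0443). The transporter genes were below the filter. Tap2 was at 3.96 and 0.750 CPM in accumbens and 0.946 and 0.398 CPM in dorsal striatum, and Tap1 at 0.372 and 1.63 CPM against 0.420 and 0.159 CPM. The partner chains of this transporter were high in different accumbens libraries, Tap2 in replicate 1 and Tap1 in replicate 2. Without accumbens replicate 2 Tap2 entered the test and passed at 2.58 (edgeR adjusted p = 0.0137).

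The 2 members of MHC class II, which microglia and other phagocytes use to show peptides to CD4 T cells, were low. Cd74, the invariant chain, had 3 and 37 counts in accumbens replicates 1 and 2, and 24 and 2 counts in dorsal striatum replicates 1 and 2, the widest spread between dorsal striatum libraries of any tested member. Its log2 fold change of 0.92 had an interval of −2.17 to 4.01 (edgeR adjusted p = 0.769). H2-Aa, a class II heavy chain, had 0 and 0 counts in accumbens and 7 and 4 counts in dorsal striatum. The dorsal striatum mean was 1.41-fold a floor of 3 counts per accumbens library (0.373 CPM). Dorsal striatum replicate 2, at 0.319 CPM, was below that floor, so no difference is bounded.

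**Figure D3:**
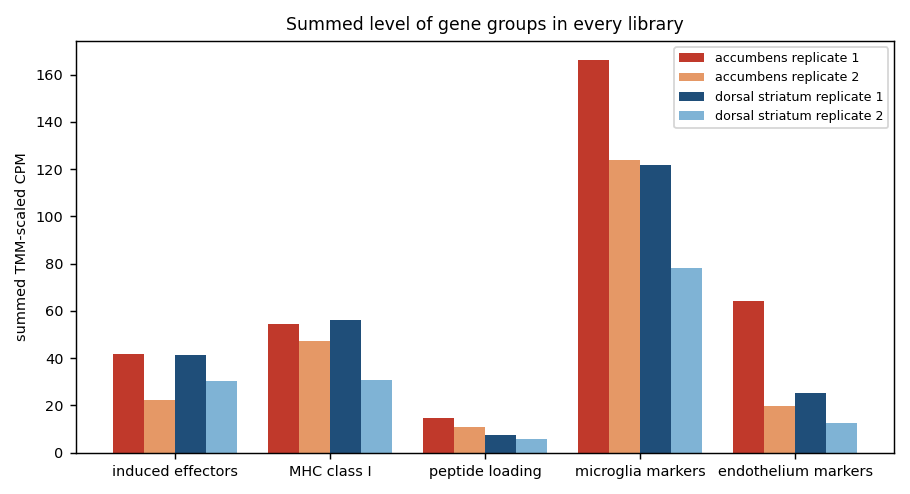
Summed TMM-scaled CPM of the effector, MHC class I and peptide loading genes and of the microglia and endothelium marker lists, 1 bar per library, accumbens left of dorsal striatum in each group. Dorsal striatum replicate 2 is the lowest bar in 4 of the 5 groups, and accumbens replicate 2 is the lowest for the effectors.

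Markers of microglia, vessel cells and macrophages also varied between libraries. The summed level of 15 microglia markers was 166 and 124 CPM in accumbens and 122 and 78.0 CPM in dorsal striatum, and 0 of the 15 passed (median log2 fold change 0.56, with 12 above 0). The summed MHC class I level was 54.5 and 47.1 CPM in accumbens and 56.0 and 30.6 CPM in dorsal striatum, and the peptide loading level 14.7 and 10.9 CPM against 7.36 and 5.74 CPM. In all 3 sums dorsal striatum replicate 2 was lowest, but this was not particular to them. Astrocyte markers summed to 3441 and 2918 CPM in accumbens and 3019 and 2121 CPM in dorsal striatum. Oligodendrocyte markers summed to 2579 and 2950 CPM against 2772 and 1935 CPM, so that library was lowest for both lists. For spiny projection neuron markers it was the highest, with sums of 5801 and 4765 CPM against 6455 and 6575 CPM. The summed level of 10 endothelium markers was 64.0 and 19.9 CPM in accumbens and 25.4 and 12.4 CPM in dorsal striatum, with 0 passing and Cldn5, a defining marker, at 0 in replicate 2 of each region. Of 8 macrophage markers, Pf4 and Ccr2 were at 0 in every library, 6 had counts, and the sums were 30.1 and 21.8 CPM in accumbens and 37.7 and 20.4 CPM in dorsal striatum. The part of these cells in the levels above was not tested.

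**Figure D4:**
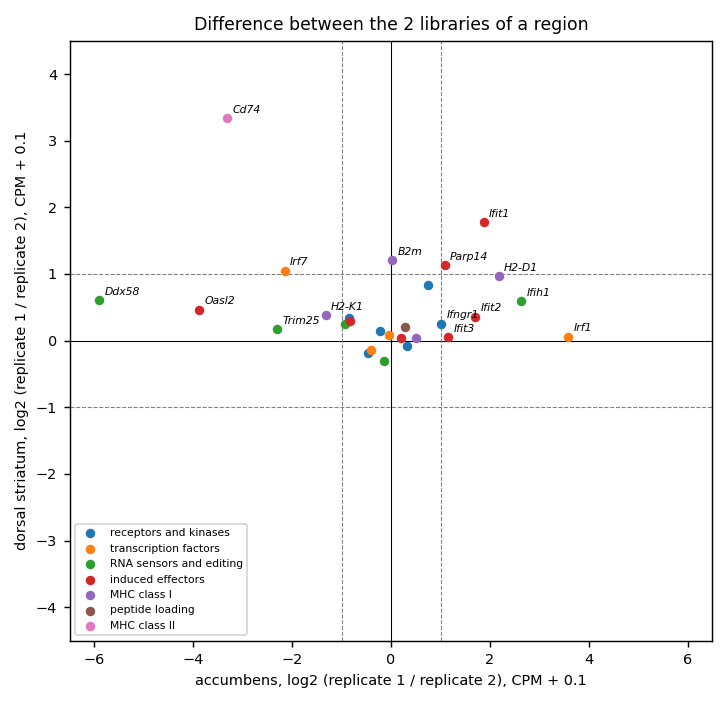
Log2 ratio of replicate 1 to replicate 2 in accumbens (x axis) and in dorsal striatum (y axis) for the 28 tested genes, computed on CPM + 0.1, with dashed lines at 2-fold. The points spread further along the accumbens axis, with Ddx58 and Oasl2 at the left and Irf1 at the right.

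Libraries of a region often differed for the tested members. The 2 accumbens libraries differed by over 2-fold for 14 of 28 tested members, and the 2 dorsal striatum libraries for 5. Among members with a mean of 1 to 10 CPM these counts were 13 and 4 of 19, that is 68.4% and 21.1%, against 45.4% and 11.3% of the 5338 tested genes in that range. In accumbens neither library was generally the higher one, since replicate 1 was above replicate 2 for 14 of 28 members and 49.9% of all tested genes. In dorsal striatum replicate 1 was above replicate 2 for 24 of 28 members (85.7%) and 50.02% of all tested genes.

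**Figure D5:**
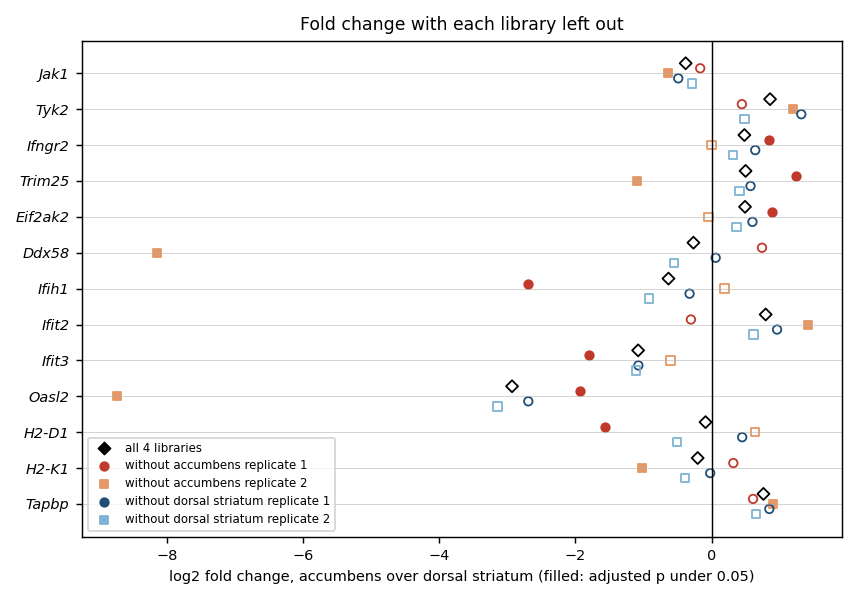
Log2 fold change of accumbens over dorsal striatum for the tested genes that passed when a library was left out, with all 4 libraries (diamonds) and without each in turn, filled where the adjusted p was under 0.05. Calls appear only without an accumbens library, and Trim25 passes above 0 without replicate 1 and below 0 without replicate 2.

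Leaving out an accumbens library changed which members passed. Without accumbens replicate 1, 3 members were higher (Eif2ak2, Ifngr2 and Trim25) and 4 lower (H2-D1, Ifih1, Ifit3 and Oasl2), where 18.2% of all tested genes passed. Without accumbens replicate 2, 4 were higher (Ifit2, Tap2, Tapbp and Tyk2) and 6 lower (Ddx58, H2-K1, Isg15, Jak1, Oasl2 and Trim25), where 28.9% of all genes passed. These fits assume that the single accumbens library has the variance of the dorsal striatum libraries. Oasl2 was the member lower in both fits, and no member was higher in both. Without either dorsal striatum library 0 members passed.

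Other genes of the same pathways gave no calls either. Of 33 further ligands and pathway components, 31 had a row and 16 were tested, and 0 passed in either direction (median log2 fold change −0.04). At an unadjusted p under 0.05 in edgeR, 3 were higher and 2 lower, where 19.2% of all tested genes reached this. The most abundant were Ptpn11, a phosphatase gene, at 173 and 161 CPM in accumbens and 194 and 187 CPM in dorsal striatum, and Jak2, the kinase of the type II receptor, at 61.9 and 77.4 CPM against 113 and 98.8 CPM. Jak2 lay lower in both accumbens libraries, as Jak1 did, with a log2 fold change of −0.60 (SE 0.17, edgeR adjusted p = 0.123). The interferon genes Ifna1, Ifna2, Ifnb1 and Ifne were at 0 in every library, and Ifng, Ifna4 and Ifnk had 1 count each in a single dorsal striatum library.

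Of 54 further interferon-induced genes, 52 had a row and 28 were tested, and 0 passed (median 0.11). At an unadjusted p under 0.05 in edgeR, 1 was higher and 2 lower, against 19.2% of all tested genes. Znfx1, an RNA helicase gene, was at 87.8 and 79.8 CPM in accumbens and 87.1 and 90.4 CPM in dorsal striatum, and Samhd1, a dNTP hydrolase gene, at 35.4 and 30.5 CPM against 33.2 and 27.8 CPM. For both genes the libraries of the regions overlapped. Of 32 further antigen processing genes, 17 were tested and 0 passed (median 0.22). At an unadjusted p under 0.05 in edgeR, 1 was higher and 1 lower, against the same 19.2%. Canx, the chaperone calnexin gene, was at 270 and 258 CPM in accumbens and 213 and 226 CPM in dorsal striatum, and Calr, the calreticulin gene, at 159 and 89.3 CPM against 83.3 and 86.7 CPM. Both chaperones of class I folding had higher values in each accumbens library, with log2 fold changes of 0.27 and 0.55 and edgeR adjusted p of 0.280 and 0.278. Among the 17 tested genes of this list, the libraries did not overlap for 8 higher and 2 lower in accumbens. Over all tested genes this share was 25.6% in each direction.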

How the data were processed

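Total RNA of dissected accumbens and dorsal striatum was sequenced in 4 libraries. The authors deposited whole-number counts for each gene symbol, in a separate file for each library. The submitters' processing notes name STAR 2.0.0e, HTSeq and the build mm10. Annotation and strand setting: not given in the sources used here. Of the 37 members, 15 have exons that overlap another gene on either strand in GENCODE M21. Whether reads there were told apart by strand is not known. Rows that name no gene held 44.4% to 49.7% of all counted reads and were left out of library sizes and tests.

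Counts were filtered with filterByExpr, scaled with TMM and tested two-sided by region with edgeR 4.0.16 (glmQLFit and glmQLFTest) in R 4.3.3 over all tested genes, with Benjamini-Hochberg adjustment. Standard errors (SE) were taken from the F statistic of each gene, and 95% intervals use the fit's total degrees of freedom. Floors use 3 counts and cover only the error of counting. In simulated data for this comparison (14029 genes fitted), among genes under a mean of 40 CPM, 11% of 2-fold and 74% of 4-fold changes were recovered. Of 129 simulated calls, 15 were false. The simulation gave both regions the same spread for a gene, whereas the real accumbens libraries differed more from each other. Recovery for the members, most of which were under 40 CPM, may therefore differ from these shares. The members, lists and motifs were chosen with earlier results of these data known. Every member with a mean of at least 1 CPM has its value in every library, and from each other list the 2 most abundant genes are named where none passed. Alternatives covered scaling, filter, tool (DESeq2 1.42.0, limma 3.58.1), a robust fit, a replicate block, abundant genes and each library left out. Coordinates are from GENCODE M21 (GRCm38, the chromosomes of mm10), and promoters from RefSeq on GRCm38.p6.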

Additional observations from a re-analysis of the deposited data

How the results depend on the processing

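Over all genes, 144 were higher and 42 lower in accumbens with edgeR and TMM. These counts were 72 and 172 with library size alone, 768 and 435 without a low-count filter, 575 and 309 with DESeq2, and 310 and 121 with limma-voom. A replicate block gave 551 and 292. Replicates 1 of the regions did not deviate together (correlation 0.0326 across 14493 genes). That value cannot show whether libraries of the same number came from the same animals, which the labels do not say. Left-out libraries gave 81 to 2386 higher and 28 to 2078 lower. Among the 37 members these counts were 0 and 0 with edgeR and TMM. They were 0 higher and 1 lower (Oasl2) without a low-count filter, 0 to 4 higher and 0 to 6 lower with a library left out, and 0 and 0 under every other alternative, the replicate block included (lowest adjusted p 0.0544, Oasl2). Trim25 was at 1.24 without accumbens replicate 1 and reversed to −1.09 without accumbens replicate 2; the cause was not tested. The sign of the log2 fold change turned for 16 of the 28 tested members with a library left out, and for 3 (Adar, Ifnar1 and Irf1) under another scaling. With 2 libraries against 2, an exact permutation test of a single gene cannot give a p below 0.333. Depth limits the 9 members below the filter, which had at most 32 counts in any library, and fitted fold changes of Ddx58 and Isg15 without accumbens replicate 2 are against 0 counts and are no bounds.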

Other observations

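Several genes outside the 37 members were chosen for these sentences after their values were seen. The neighbouring genes Parp9 and Dtx3l, whose products act as a pair in the interferon response, had counts in all 4 libraries, with lower values in each accumbens library. Dtx3l was at 0.991 and 2.25 CPM in accumbens and 3.47 and 4.94 CPM in dorsal striatum, and Parp9 at 0.248 and 0.750 CPM against 2.21 and 1.12 CPM (edgeR adjusted p = 0.337 and 0.392). The immunity-related GTPase gene Irgm2 was at 0.124 and 0.750 CPM in accumbens and 4.31 and 1.91 CPM in dorsal striatum, and the guanylate-binding protein gene Gbp7 at 1.98 and 1.50 CPM against 7.25 and 3.83 CPM (edgeR adjusted p = 0.192 and 0.215). H2-M3, a non-classical class I gene, was at 0.248 and 0.125 CPM in accumbens and 2.00 and 1.35 CPM in dorsal striatum (edgeR adjusted p = 0.169). Other genes of the same lists had higher values in each accumbens library. Irf3, a transcription factor gene upstream of interferon, was at 16.7 and 10.8 CPM in accumbens and 7.36 and 3.59 CPM in dorsal striatum, and Tlr3, a sensor of double-stranded RNA, at 11.5 and 12.1 CPM against 6.41 and 3.43 CPM (edgeR adjusted p = 0.176 and 0.172). Psmb10, an immunoproteasome subunit gene, was at 6.81 and 9.88 CPM in accumbens and 4.31 and 3.03 CPM in dorsal striatum, and Lgals3bp at 26.6 and 21.6 CPM against 16.2 and 13.9 CPM (edgeR adjusted p = 0.230 and 0.221). None of these genes passed.

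Of 11 markers of T and natural killer cells, 2 had counts. Cd3d, Cd3e, Cd3g, Cd8a, Trac, Nkg7, Gzma, Gzmb and Klrb1c were at 0 in every library, and Cd8b1 had 1 count, in dorsal striatum replicate 2. Cd4 stood at 63.5 and 36.4 CPM in accumbens and 81.7 and 81.8 CPM in dorsal striatum, a difference of −0.71 on the log2 scale (edgeR adjusted p = 0.181). Its exons overlap no other gene in GENCODE M21. Cd163, a macrophage marker, was at 14.6 and 16.9 CPM in accumbens and 16.9 and 14.3 CPM in dorsal striatum, while Mrc1, another, was at 0.619 and 1.13 CPM against 0.736 and 0.478 CPM. Ciita, the master regulator gene of MHC class II, was at 2.73 and 1.63 CPM in accumbens and 3.99 and 2.55 CPM in dorsal striatum. The class II chain genes H2-Ab1 and H2-Eb1 were at 0 in both accumbens libraries and at or below 0.638 CPM in dorsal striatum. Not all class II genes were this low, since H2-DMa was at 20.2 and 19.8 CPM in accumbens and 14.9 and 19.3 CPM in dorsal striatum. H2-DMb1 was at 0.619 and 1.75 CPM against 0.420 and 0.478 CPM.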
